A study of Mus musculus with 8 samples.

Results

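Proliferating cells need the enzymes that copy DNA and the cyclin-dependent kinases (CDKs) that time the copying, and this account covers the mRNA of 59 such genes in the lung of the mouse embryo at E12.5. The genes were taken by symbol: the MCM, origin recognition complex and GINS genes, the A, B, D and E cyclins, the numbered CDK genes, 6 CDK inhibitor genes, and *Pcna*, *Cdt1*, *Gmnn*, *Cdc6*, *Cdc45*, *Rrm1* and *Rrm2*. All 59 were among the 18996 genes tested. The rule goes by symbol and not by signal, although it was set with earlier results of these data known. *Ccnb1* was not analysed here.

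The samples were 4 of distal tip epithelium and 4 of the mesenchyme around it, all from wild type embryos at E12.5. The study asked which genes each of these tissues expresses. Distal buds were cut out with their mesenchyme and mesothelium, dispase loosened them, and the epithelium was pulled free with needles, although the labels call the material a homogenate of the organ. The labels give C57bl/6J and the methods C57BL/6, whereas the design text of the series gives BALb/c. Each array, read in 2 colours, held the epithelium and the mesenchyme sample of 1 number, with epithelium in Cy3 and mesenchyme in Cy5 on every array, so dye and tissue cannot be told apart in any difference given here. Each value is a log2 signal, and each difference is epithelium minus mesenchyme, so 1 unit is a doubling. Signals of different genes come from different probes and are not set against each other.

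Replication begins at origins, which the origin recognition complex marks and where Cdc6 and Cdt1 load the ring of Mcm2 to Mcm7 proteins, the core of the helicase. Cdc45 and the GINS complex then switch the helicase on, and Pcna clamps the polymerases to DNA. D cyclins with Cdk4 or Cdk6 answer growth signals in G1, E and A cyclins with Cdk2 act at the start of S phase and through it, and B cyclins with Cdk1 act at mitosis. The Cdkn1 proteins inhibit CDKs broadly, whereas the Cdkn2 proteins of the INK4 group bind Cdk4 and Cdk6. At E12.5 the lung grows by branching, and cells divide in both the epithelium of the tips and the mesenchyme.

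Most of the 59 genes differed little between the tissues, and those that did were split between them. With limma at an adjusted p under 0.05, 14 genes were higher in epithelium, 13 were higher in mesenchyme and 32 did not pass. Among all genes, 21.2% were called higher in epithelium and 24.8% higher in mesenchyme, together 45.9%. Of the 59 genes 23.7% and 22.0% were, so in this fit the shares of the members lay near the background. The median difference of the 59 genes was 0.00, and the median size of the difference was 0.20, beside 0.24 for all genes and 0.29 for all genes without the dimmest 30%. Only 2 of the 59 genes were that dim, and of the other 57, 26 passed (45.6%), beside 58.0% of all genes without the dimmest 30%. Only *Ccnd1* and *Cdkn2b* passed with a difference of at least 1 on the log2 scale, a size at which 13.9% of all genes were called. In these bulk samples, fewer cells that express a gene and less of its RNA per cell cannot be told apart.

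The calls are given by role as a description, with no test of the groups. Of the 26 genes of the replication machinery, 3 were higher in epithelium and 4 in mesenchyme, while 19 did not pass. Of the 33 cyclin, CDK and inhibitor genes, 11 were higher in epithelium and 9 in mesenchyme, and 13 did not pass. By role, the called share was 77.8% of the cyclins, 66.7% of the inhibitors, 60% of the cell cycle CDKs, 46.2% of the other CDKs, 44.4% of the MCM genes, 33.3% of the genes of helicase activation and the fork, 11.1% of the origin genes and 0% of the ribonucleotide reductase genes, beside 45.9% of all genes. The median size of the difference was 0.14 in the machinery and 0.26 among cyclins, CDKs and inhibitors. The samples of the tissues did not overlap for 13 genes with higher epithelium and for 13 with higher mesenchyme, which is 44.1% of the members, beside 44.3% of all genes.

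**Figure D1:**
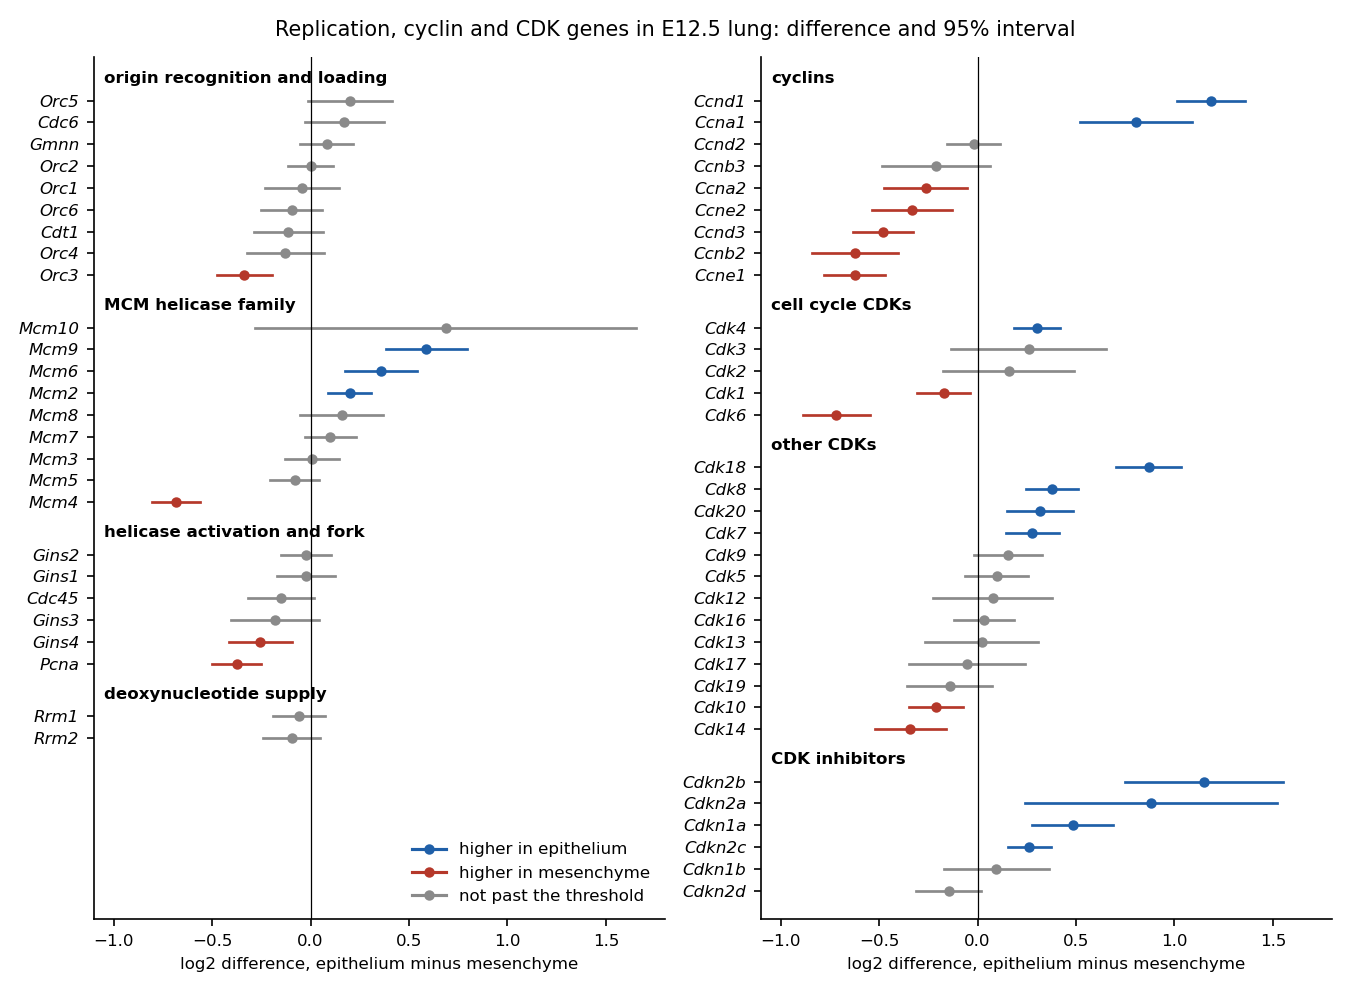
Difference between the tissues for each of the 59 genes, by role. The horizontal axis is the log2 difference, epithelium minus mesenchyme, points are the estimates and bars the 95% intervals, in blue for genes higher in epithelium, in red for genes higher in mesenchyme and in grey for genes that did not pass. Ccnd1 at 1.19 and Cdkn2b at 1.15 lie farthest right and Cdk6 at -0.72 farthest left, and the wide bar of Mcm10 comes with 1 low mesenchyme sample.

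With the array as a block, which compares the tissues within each array, 20 of the genes were higher in epithelium and 19 in mesenchyme. That is 66.1% of the members, beside 57.4% of all genes (26.5% higher in epithelium and 30.9% in mesenchyme). Counted without the dimmest 30% of genes, 66.7% of the members and 73.1% of all genes were called with the block. All 27 genes called without the block stayed called in that fit. The 12 further genes had the same sign on all 4 arrays, but that fit rests on the same 4 differences, so the signs are no separate support. Of all 18996 genes, 5802 were higher in epithelium on all 4 arrays and 6684 in mesenchyme, beside 24 and 22 of the 59 members. The block values of the 12 genes are given with each gene. For the replication machinery the counts with the block were 7 higher in epithelium and 8 in mesenchyme, which is 57.7%. By role, the called share with the block was 44.4% of the origin genes and 50% of the ribonucleotide reductase genes. It was 66.7% of the MCM genes and of the genes of helicase activation and the fork. For the other roles it was 77.8% of the cyclins, 83.3% of the inhibitors, 80% of the cell cycle CDKs and 61.5% of the other CDKs. With the block the share of the machinery thus lay near the 57.4% of all genes. It stayed below the 73.1% of all genes without the dimmest 30%, and none of the 26 genes was that dim. The shares of the origin and the ribonucleotide reductase genes lay below both.

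The separation of the tissues was checked on marker genes that were not members. All 7 epithelial markers were higher in epithelium, with a median difference of 4.10, and all 7 mesenchymal markers were higher in mesenchyme, with a median of -1.17. The mean signal of the epithelial markers ran from 12.72 to 12.85 in epithelium samples and from 7.93 to 8.55 in mesenchyme samples. That of the mesenchymal markers ran from 8.06 to 8.22 in epithelium and from 9.33 to 9.46 in mesenchyme. *Krt8* read 12.25 in mesenchyme replicate 4, above 8.95 to 9.42 in the other mesenchyme samples. Markers of other cells moved with the tissues too. The 6 endothelial markers were all higher in mesenchyme, and so were 6 of 7 erythroid and 3 of 4 leukocyte markers, whereas all 5 smooth muscle markers and 4 of 5 neural markers were higher in epithelium. The mean signal of the endothelial markers ran from 4.99 to 5.42 in epithelium samples and from 8.48 to 8.55 in mesenchyme samples, and that of the erythroid markers from 5.84 to 5.98 in epithelium and from 8.02 to 8.24 in mesenchyme. For the leukocyte markers it ran from 4.07 to 4.28 in epithelium and from 5.17 to 5.28 in mesenchyme. The mean signal of the smooth muscle markers ran from 12.43 to 12.52 in epithelium and from 9.59 to 9.83 in mesenchyme, and that of the neural markers from 5.61 to 5.69 in epithelium and from 4.31 to 4.38 in mesenchyme. Of the 5 mesothelial markers, 2 were higher in epithelium, *Msln* (2.44) and *Krt19* (1.71). The 3 higher in mesenchyme were *Wt1* (-4.03), *Upk3b* (-4.07) and *Upk1b* (-3.29). Across all genes, samples of the same tissue correlated at 0.995 to 0.997. The part of these cells in the differences below was not tested.

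Many genes of this kind carry recognition sequences for E2F factors, which drive S phase genes, or for the complexes that act on G2 and M genes, and RefSeq promoter windows from 250 bases before to 50 bases after the start (build GRCm38.p6) were available for 46 of the 59 genes. The other 13 genes were *Ccna2*, *Ccnd1*, *Ccnd2*, *Ccne2*, *Cdk17*, *Cdk19*, *Cdk3*, *Cdk5*, *Gins1*, *Gins2*, *Gins4*, *Gmnn* and *Mcm4*. Exact matches on both strands were counted for an E2F core (TTCCCGC or, as its other form, TTGGCGC), a cell cycle homology region (TTTGAA or, as its other form, TTCGAA) and a CCAAT box (CCAAT). A gene with several windows counted if any of them held the match. An E2F core was in the windows of 15 of 46 members (32.6%), beside 10.9% of the 15238 genes with a window and a test. The CCAAT box was in those of 30 members (65.2%), beside 42.3%, and the homology region in those of 8 (17.4%), beside 19% of all genes. An E2F core shared bases with a CCAAT box in 1 of the 55 windows of members.

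By role, the E2F core was most frequent in the MCM genes, in 5 of 8, and all 8 held a CCAAT box. That box was also in all 3 genes of helicase activation and the fork and both ribonucleotide reductase genes with a window. The homology region was in 2 of those 3 fork genes and in 2 of the 8 MCM genes. None of the 10 other CDK genes and none of the 5 cyclin genes with a window held an E2F core, beside 10.9% of all genes. Groups this small can hold none at that share, and *Ccna2*, *Ccnd1*, *Ccnd2* and *Ccne2* had no window, so no trait of these roles is read from it. Read by direction, the E2F core was in 3 of 13 genes higher in epithelium (23.1%), in 2 of 9 higher in mesenchyme (22.2%) and in 10 of 24 that did not pass (41.7%). A match is a description of letters and says nothing of binding in these tissues. The stretch just before the start is printed for 4 genes that show the match types: a B cyclin with 3 CCAAT boxes, *Cdk1* with 2 homology regions and 2 CCAAT boxes, and 2 MCM genes with 2 E2F cores and 2 CCAAT boxes each. Each runs 5′ to 3′ along the gene and ends at the base before the start, with every match on either strand in capitals. The counts just given are for the printed stretches only. In its full window the B cyclin also had 2 homology regions, and *Cdk1* also had 1 E2F core. *Cdk1* and *Mcm5* each had 3 CCAAT boxes in the full window. The B cyclin and *Cdk1* were higher in mesenchyme, *Mcm6* was higher in epithelium and *Mcm5* did not pass.
*Ccnb2* (chr9:70421555-70421674, minus strand): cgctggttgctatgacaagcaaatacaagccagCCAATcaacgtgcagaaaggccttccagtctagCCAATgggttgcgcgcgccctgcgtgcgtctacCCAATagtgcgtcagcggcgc
*Cdk1* (chr10:69352913-69353032, minus strand): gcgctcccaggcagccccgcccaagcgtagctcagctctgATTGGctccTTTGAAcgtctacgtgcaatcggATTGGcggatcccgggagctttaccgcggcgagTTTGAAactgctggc
*Mcm6* (chr1:128359706-128359825, minus strand): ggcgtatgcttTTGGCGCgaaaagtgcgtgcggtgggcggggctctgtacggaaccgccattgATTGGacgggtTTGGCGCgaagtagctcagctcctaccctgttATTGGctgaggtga
*Mcm5* (chr8:75109329-75109508, plus strand): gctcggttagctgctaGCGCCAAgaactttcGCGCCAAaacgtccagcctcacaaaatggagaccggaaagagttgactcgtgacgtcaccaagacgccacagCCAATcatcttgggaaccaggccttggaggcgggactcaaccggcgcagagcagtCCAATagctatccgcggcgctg

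The cyclins had the highest median size of the difference of the 8 roles, at 0.48. Of the 3 D cyclins, 1 was higher in epithelium, 1 was higher in mesenchyme and 1 did not pass. *Ccnd1*, whose protein pairs with *Cdk4* and *Cdk6* in response to growth factors, had log2 signals of 12.23, 12.21, 12.06 and 12.25 in the epithelium samples, against 11.08, 11.01, 10.83 and 11.09 in the mesenchyme samples. Every epithelium sample was above every mesenchyme sample, by a gap far wider than the spread within either tissue. The means were 12.19 ± 0.08 in epithelium and 11.00 ± 0.12 in mesenchyme (SD, n = 4 each), and *Ccnd1* was 2.27-fold higher in epithelium (log2 difference 1.19, SE 0.075, adjusted p = 2.01e-06). *Ccnd2* had 12.57, 12.60, 12.58 and 12.42 in epithelium, against 12.58, 12.61, 12.55 and 12.52 in mesenchyme. The tissues overlapped, and the difference of -0.02 had a 95% interval of -0.15 to 0.11 (adjusted p = 0.824). *Ccnd2* had 2 further array features, with differences of -0.27 and -0.17 that both passed when adjusted over all features, and the mean of the 3 gave -0.15 (adjusted p = 0.0197). *Ccnd3* had 11.31, 11.16, 11.18 and 11.12 in epithelium, against 11.80, 11.64, 11.64 and 11.62 in mesenchyme, where every sample was higher. It was 1.4-fold higher in mesenchyme (log2 difference -0.48, SE 0.066, adjusted p = 0.000329).

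Both E cyclins, the partners of *Cdk2* at the start of S phase, were higher in mesenchyme. *Ccne1* had 12.07, 11.91, 12.10 and 11.99 in epithelium, against 12.70, 12.56, 12.73 and 12.57 in mesenchyme. The tissues did not overlap, and *Ccne1* was 1.54-fold higher in mesenchyme (log2 difference -0.62, SE 0.067, adjusted p = 6.9e-05), with -0.70 on its other feature. *Ccne2* had 8.07, 7.97, 8.03 and 7.80 in epithelium, against 8.42, 8.34, 8.34 and 8.11 in mesenchyme. The highest epithelium sample lay just below the lowest mesenchyme sample, and the difference was -0.33 (SE 0.088, adjusted p = 0.0138). *Ccne2* lost its call when array 2 (-0.32, adjusted p = 0.0725) or array 3 (-0.34, adjusted p = 0.052) was left out.

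Of the cyclins of S phase and mitosis, *Ccna2* and *Ccnb2* were higher in mesenchyme and *Ccna1* was higher in epithelium. *Ccna1*, a cyclin known above all from male meiosis, had 5.58, 5.42, 5.65 and 5.28 in epithelium, against 4.67, 4.49, 4.99 and 4.58 in mesenchyme. Every epithelium sample was higher, at 1.75-fold (log2 difference 0.80, SE 0.12, adjusted p = 0.000716). *Ccna2*, the A cyclin of dividing body cells, had 11.62, 11.62, 11.46 and 11.37 in epithelium, against 11.86, 11.93, 11.67 and 11.63 in mesenchyme. The gap between the tissues was narrow, and the difference of -0.26 (SE 0.092) passed only just (adjusted p = 0.0456, and 0.00167 with the array as a block). Its call was lost without epithelium replicate 3, epithelium replicate 4, mesenchyme replicate 1 or mesenchyme replicate 2, with differences of -0.24 to -0.21 and adjusted p from 0.103 to 0.115. It was also lost without any 1 of the 4 arrays (-0.28 to -0.24, adjusted p from 0.0707 to 0.107).

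*Ccnb2*, the mitotic B cyclin with 3 CCAAT boxes before its start, had 12.46, 12.44, 12.75 and 12.52 in epithelium, against 13.09, 13.04, 13.36 and 13.18 in mesenchyme. All mesenchyme samples were higher, at 1.54-fold (log2 difference -0.62, SE 0.095, adjusted p = 0.000649). *Ccnb3*, a B cyclin of germ cells, was among the dimmest 30% of genes, with 2.47, 2.05, 2.34 and 1.95 in epithelium, against 2.48, 2.47, 2.27 and 2.43 in mesenchyme. Its tissues overlapped (log2 difference -0.21, adjusted p = 0.192). Of the 9 cyclins, 2 were therefore higher in epithelium (22.2%, beside 21.2% of all genes) and 5 in mesenchyme (55.6%, beside 24.8%). Among all genes without the dimmest 30%, these shares were 26.4% and 31.6%. The other 2 cyclins did not pass, and the median difference was -0.26 beside -0.03 for all genes. Of the 5 calls toward mesenchyme, those of *Ccna2* and *Ccne2* were lost without some arrays, as given above.

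**Figure D2:**
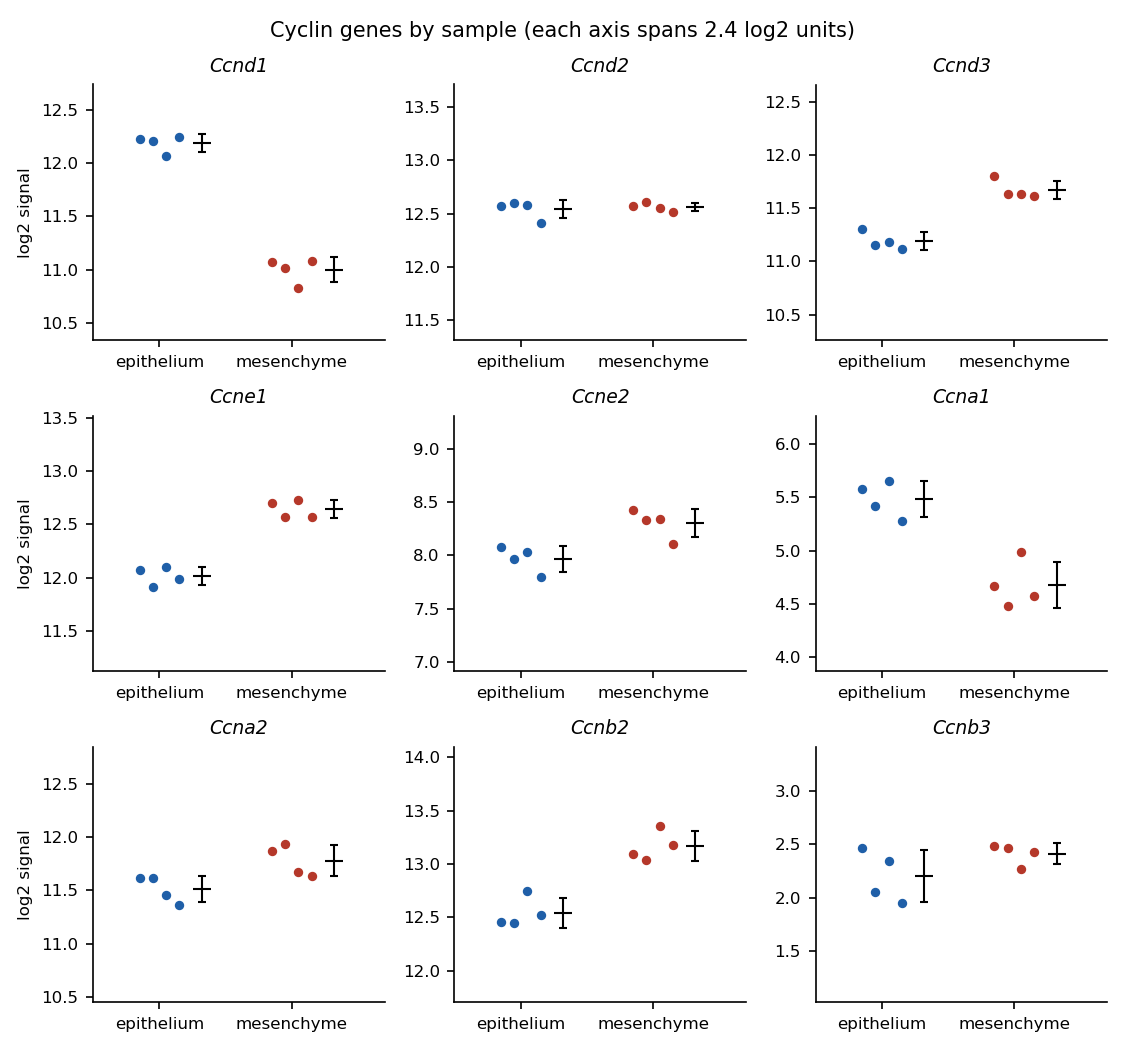
Log2 signal of the 9 cyclin genes in each sample, epithelium on the left and mesenchyme on the right of each panel. Points are samples and the bar beside them is the mean with its SD (n = 4 each), and each panel spans the same range of log2 units at a different level. Ccnd1 and Ccna1 stood higher in epithelium without overlap, Ccnd3, Ccne1, Ccne2, Ccna2 and Ccnb2 stood higher in mesenchyme, and Ccnd2 overlapped.

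*Cdk4* and *Cdk6*, the kinases that D cyclins activate, ran in opposite directions. *Cdk4* had 12.24, 12.19, 12.26 and 12.19 in epithelium, against 11.91, 11.85, 11.96 and 11.96 in mesenchyme. The tissues did not overlap, but the difference was modest, at 1.23-fold higher in epithelium (log2 difference 0.30, SE 0.051, adjusted p = 0.00127). *Cdk6* had 11.28, 11.07, 11.25 and 11.29 in epithelium, against 11.95, 11.80, 11.96 and 12.05 in mesenchyme. Every mesenchyme sample was higher, and the 1.64-fold difference was the largest toward mesenchyme of the 59 genes (log2 difference -0.72, SE 0.075, adjusted p = 5.75e-05). All 3 *Cdk6* features passed, between -0.72 and -0.52.

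*Cdk1*, the mitotic kinase with 2 homology regions before its start, had 11.03, 10.98, 10.95 and 10.89 in epithelium, against 11.21, 11.18, 11.09 and 11.06 in mesenchyme. The samples did not overlap but lay close together, at a log2 difference of -0.17 (SE 0.059, adjusted p = 0.0419, and 0.00408 with the block). The call of *Cdk1* was lost without epithelium replicate 2, 3 or 4 or mesenchyme replicate 1, 2 or 3 (-0.18 to -0.15, adjusted p from 0.0546 to 0.107), without any 1 array (-0.18 to -0.16, adjusted p from 0.0781 to 0.148), and in the mean with its dim second feature (-0.12, adjusted p = 0.261). *Cdk2*, the partner of E and A cyclins, had 5.56, 5.17, 5.62 and 5.50 in epithelium, against 5.37, 4.93, 5.50 and 5.42 in mesenchyme. On each array epithelium was higher, yet the arrays differed more than the tissues, and the difference of 0.16 did not pass (95% interval -0.17 to 0.49, adjusted p = 0.422, and 0.0209 with the block). A second *Cdk2* feature for another transcript record had low signals, with means of 2.10 in epithelium and 2.59 in mesenchyme. It went the other way at -0.49 (adjusted p = 0.0421 over all features), and the mean of both features was -0.16 (adjusted p = 0.151). *Cdk3* had 4.05, 4.15, 3.83 and 4.25 in epithelium, against 4.14, 3.48, 3.54 and 4.07 in mesenchyme, with overlap (log2 difference 0.26, adjusted p = 0.263).

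Among the CDK inhibitors, 4 of 6 were higher in epithelium (66.7%, beside 21.2% of all genes). None was called higher in mesenchyme (beside 24.8% of all genes) and 2 did not pass, with a median difference of 0.37. With the block *Cdkn2d* was called as well, toward mesenchyme. In the mean over all features of a gene the call of *Cdkn2a* was lost. *Cdkn2b*, which encodes the *Cdk4* and *Cdk6* inhibitor p15, had 4.19, 3.96, 3.74 and 3.90 in epithelium, against 2.92, 3.0, 2.27 and 3.0 in mesenchyme. The tissues did not overlap, and *Cdkn2b* was 2.22-fold higher in epithelium (log2 difference 1.15, SE 0.18, adjusted p = 0.000644), although its signals were low and mesenchyme replicate 3 lay apart from the other mesenchyme samples. Without that sample the difference was 0.97 and still passed (adjusted p = 0.000155). *Cdkn1a*, which encodes p21, had 5.50, 5.58, 5.85 and 5.72 in epithelium, against 5.17, 5.10, 5.33 and 5.12 in mesenchyme. Every epithelium sample was higher, at 1.4-fold (log2 difference 0.48, SE 0.09, adjusted p = 0.00211), and all 10 features of the gene passed with differences of 0.35 to 0.64.

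*Cdkn2c*, which encodes the inhibitor p18, was higher in epithelium by less, with 7.52, 7.46, 7.48 and 7.5 in epithelium, against 7.25, 7.20, 7.19 and 7.27 in mesenchyme. The spread within the tissues was small (log2 difference 0.26, SE 0.048, adjusted p = 0.00188), and the second feature gave 0.37. *Cdkn2a*, the gene of p16 and of p19Arf, was called on the brightest of its 10 features. That feature had 3.61, 3.3, 3.91 and 3.04 in epithelium, against 3.3, 2.15, 2.65 and 2.23 in mesenchyme, values that overlapped and lay among the dimmest 30% of genes. Its difference of 0.88 (SE 0.28) passed (adjusted p = 0.0301), but the mean of all 10 features gave 0.06 (adjusted p = 0.532). The other 9 features lay between -0.18 and 0.32, at tissue means of only 1.91 to 2.39. Of these, 1 at 0.32 also passed when adjusted over all features (adjusted p = 0.0162), while 7 were negative and none of those passed. The call was also lost without epithelium replicate 1 or 3 or mesenchyme replicate 2, 3 or 4 (0.73 to 0.90, adjusted p from 0.0532 to 0.0779) and without array 2, 3 or 4 (0.75 to 0.91, adjusted p from 0.0625 to 0.123).

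*Cdkn1b*, which encodes p27, had 6.26, 6.35, 6.13 and 6.01 in epithelium, against 6.36, 6.15, 5.99 and 5.87 in mesenchyme. The tissues overlapped (log2 difference 0.10, 95% interval -0.17 to 0.36, adjusted p = 0.556). Of its 12 features 2 passed, both higher in epithelium, and the mean over the 12 was 0.21 (adjusted p = 0.019). Those 2 had low signals, averaging 3.64 and 3.20 in epithelium against 2.93 and 2.60 in mesenchyme. No feature but the brightest averaged above 3.64 in either tissue, so the mean over the 12 rests mostly on low signals. *Cdkn2d*, which encodes p19 of the INK4 group, was the inhibitor with a negative difference, with 10.25, 10.13, 10.02 and 10.17 in epithelium, against 10.40, 10.29, 10.16 and 10.30 in mesenchyme. It was lower in epithelium on all 4 arrays, and its difference of -0.15 passed only with the array as a block (adjusted p = 0.136, and 0.00563 with the block).

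**Figure D3:**
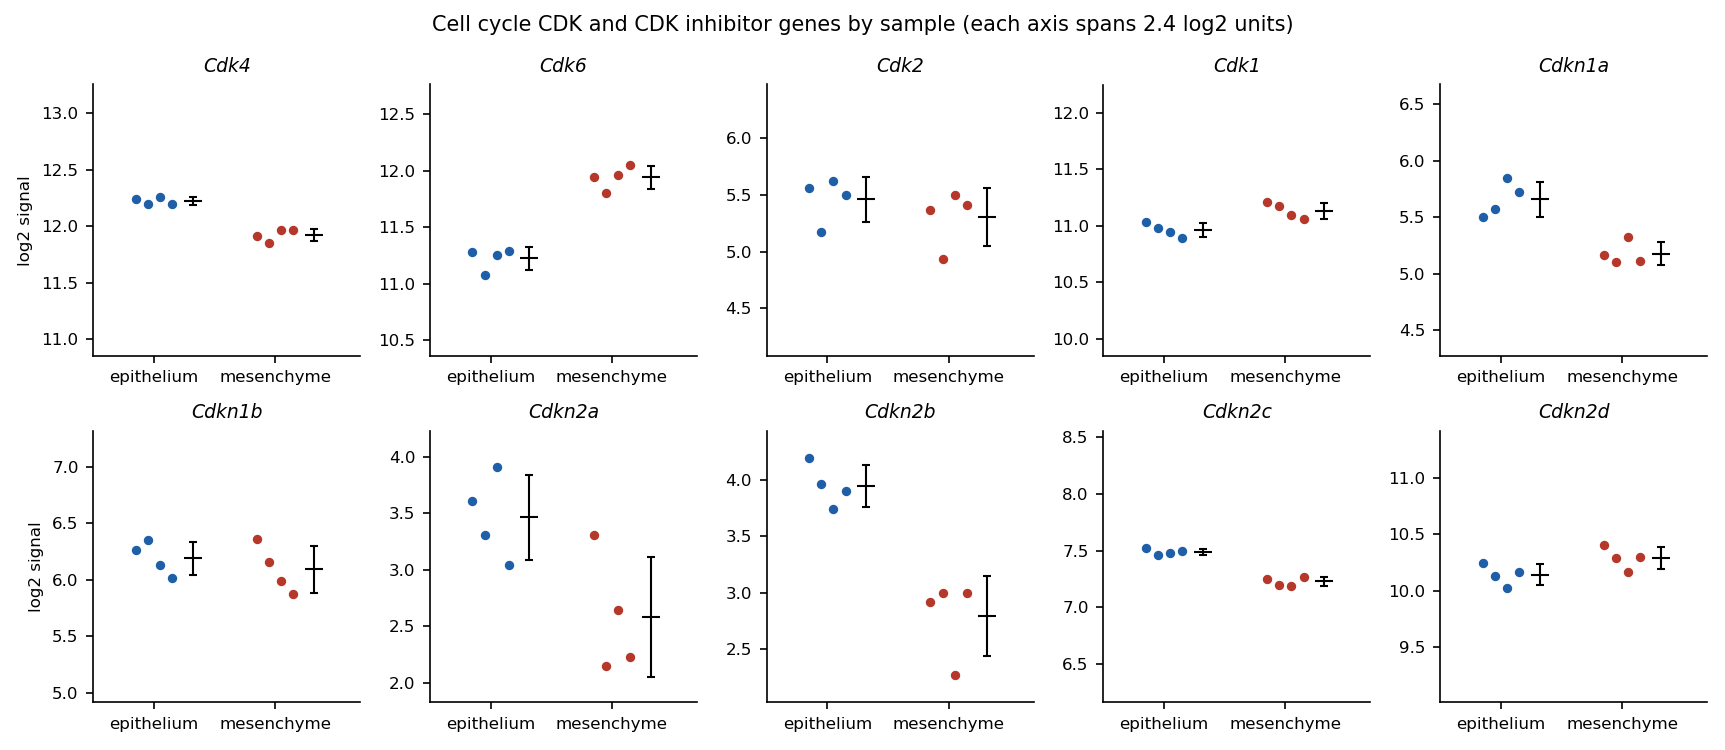
Log2 signal of Cdk4, Cdk6, Cdk2, Cdk1 and the 6 CDK inhibitor genes in each sample, epithelium left of mesenchyme in every panel. Points are samples and bars the mean with its SD (n = 4 each). Cdk4 stood higher in epithelium and Cdk6 in mesenchyme, Cdkn1a, Cdkn2b and Cdkn2c stood higher in epithelium without overlap, and the low and scattered signals of Cdkn2a overlapped.

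The other CDKs, of which several act in transcription rather than in the cell cycle, gave 4 genes higher in epithelium and 2 higher in mesenchyme. That is a called share of 46.2%, beside 45.9% of all genes, and 7 did not pass. *Cdk18*, a kinase of the PCTAIRE group, had 9.26, 9.08, 9.07 and 9.20 in epithelium, against 8.44, 8.20, 8.25 and 8.25 in mesenchyme. Each epithelium sample was well above each mesenchyme sample, at 1.83-fold (log2 difference 0.87, SE 0.072, adjusted p = 1.2e-05). *Cdk8*, a kinase of the Mediator complex, had 9.24, 9.22, 9.17 and 9.32 in epithelium, against 8.86, 8.79, 8.85 and 8.94 in mesenchyme, again without overlap (log2 difference 0.38, SE 0.058, adjusted p = 0.000641), and 2 of its 3 features passed. *Cdk19*, the paralog of *Cdk8* in Mediator, had a difference of -0.14 that passed only with the block (adjusted p = 0.265, and 0.0261 with the block), and its second feature gave 0.26.

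Among these CDKs, *Cdk14*, a PFTAIRE kinase, had the largest difference toward mesenchyme, with 9.35, 9.45, 9.54 and 9.49 in epithelium, against 9.63, 9.76, 9.92 and 9.88 in mesenchyme. The tissues did not overlap (log2 difference -0.34, SE 0.079, adjusted p = 0.00687), but *Cdk14* had 4 dimmer features between -0.25 and 0.07, and the mean of the 5 gave -0.11 (adjusted p = 0.145). Those 4 had low signals, with tissue means of 2.03 to 4.08. *Cdk10* had 11.39, 11.20, 11.29 and 11.26 in epithelium, against 11.57, 11.42, 11.48 and 11.49 in mesenchyme, which did not overlap (log2 difference -0.21, SE 0.06, adjusted p = 0.0197). *Cdk10* lost its call without epithelium replicate 2 or 4 or mesenchyme replicate 1 (-0.20 to -0.18, adjusted p from 0.0511 to 0.0585), without array 2, 3 or 4 (-0.21 to -0.20, adjusted p from 0.0574 to 0.0874), and in the mean of its 2 features (-0.19, adjusted p = 0.0529).

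The remaining CDKs differed by less. *Cdk7*, the kinase of the CDK-activating complex, was 1.21-fold higher in epithelium (log2 difference 0.28, SE 0.059, adjusted p = 0.00459), yet its 2 dimmer features gave -0.21 and -0.16 and the mean of the 3 was -0.03 (adjusted p = 0.726). The feature at -0.16 averaged only 2.05 in epithelium and 2.21 in mesenchyme. *Cdk20* was higher in epithelium as well (log2 difference 0.32, SE 0.073, adjusted p = 0.00666). *Cdk9*, the elongation kinase, had a log2 difference of 0.16 and passed only with the block (adjusted p = 0.132, and 0.00556 with the block). *Cdk5*, *Cdk12*, *Cdk13*, *Cdk16* and *Cdk17* did not pass in either fit, with differences of -0.05 to 0.10 and 95% intervals that stayed within -0.35 to 0.38. A second, dimmer feature of *Cdk12* passed at 0.31 when adjusted over all features (adjusted p = 0.00228). *Cdk7*, *Cdk20*, *Cdk9*, *Cdk5*, *Cdk12* and *Cdk19* were named after their values were seen, as were *Mcm2*, *Mcm8*, *Mcm10*, *Orc4*, *Orc5*, *Orc6*, *Cdt1*, *Cdc6* and *Gins3*.

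Of the 9 MCM genes, 3 were higher in epithelium and 1 in mesenchyme, a called share of 44.4% beside 45.9% of all genes. The 6 subunits of the helicase ring, which work together in 1 complex, differed in direction. *Mcm4* had 13.92, 13.92, 13.94 and 13.81 in epithelium, against 14.55, 14.57, 14.65 and 14.55 in mesenchyme. All mesenchyme samples were higher with little spread, at 1.61-fold (log2 difference -0.68, SE 0.053, adjusted p = 7.67e-06). *Mcm6*, whose promoter held 2 E2F cores, had 14.88, 14.94, 14.84 and 14.65 in epithelium, against 14.56, 14.53, 14.42 and 14.37 in mesenchyme. Every epithelium sample was higher (log2 difference 0.36, SE 0.079, adjusted p = 0.00564). *Mcm2* was also higher in epithelium, by less, with 11.86, 11.77, 11.83 and 11.81 in epithelium, against 11.64, 11.59, 11.66 and 11.58 in mesenchyme (log2 difference 0.20, SE 0.048, adjusted p = 0.00852).

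The other 3 subunits of the ring did not pass. *Mcm3* had 13.32, 13.41, 13.46 and 13.49 in epithelium, against 13.36, 13.38, 13.43 and 13.50 in mesenchyme, a difference of 0.01 with a 95% interval of -0.13 to 0.15 (adjusted p = 0.937). *Mcm5*, with the same 2 types of match before its start as *Mcm6*, had 12.61, 12.59, 12.62 and 12.57 in epithelium, against 12.60, 12.64, 12.72 and 12.76 in mesenchyme. These values overlapped (log2 difference -0.08, 95% interval -0.20 to 0.04, adjusted p = 0.261). *Mcm7* had a log2 difference of 0.10, with epithelium higher on all 4 arrays, and passed only with the block (adjusted p = 0.186, and 0.0391 with the block).

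*Mcm9*, which acts with *Mcm8* in repair by homologous recombination, had 6.43, 6.55, 6.71 and 6.61 in epithelium, against 5.77, 6.08, 6.02 and 6.07 in mesenchyme. Its samples did not overlap, and it was 1.5-fold higher in epithelium (log2 difference 0.59, SE 0.09, adjusted p = 0.000658). *Mcm8* had a log2 difference of 0.16 and did not pass (adjusted p = 0.202, and 0.0416 with the block), though it did without mesenchyme replicate 4 (0.24, adjusted p = 0.0326). *Mcm10*, which binds the helicase at the start of replication, had the widest interval of all members, with 11.96, 11.87, 12.01 and 12.05 in epithelium, against 11.76, 11.69, 9.82 and 11.89 in mesenchyme. Mesenchyme replicate 3 lay far below the other 7 samples. The difference of 0.69 (SE 0.42) did not pass (adjusted p = 0.228), and without that sample it was 0.20 (adjusted p = 0.0674).

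**Figure D4:**
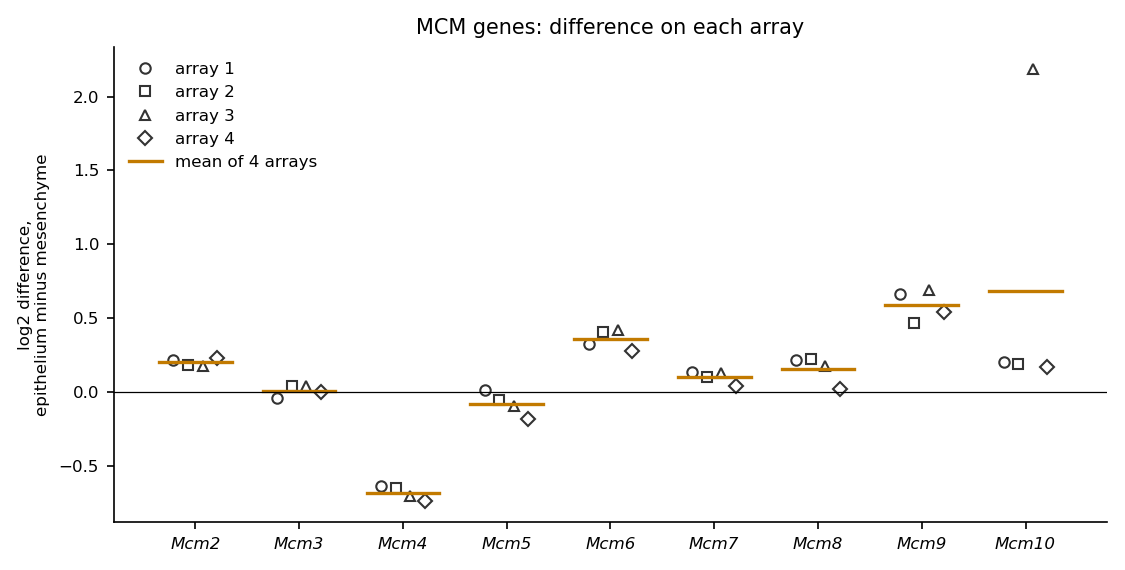
Log2 difference, epithelium minus mesenchyme, of the 9 MCM genes on each of the 4 arrays. Symbols are arrays and the orange bar is their mean. The arrays of Mcm4 lay between -0.74 and -0.64. Those of Mcm2, Mcm6, Mcm7, Mcm8, Mcm9 and Mcm10 all lay above 0, and array 3 stood apart for Mcm10.

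The 9 genes that mark origins and load the helicase had a median size of the difference of 0.11. They gave 1 call, toward mesenchyme (11.1%, beside 45.9% of all genes, and with the block 44.4%, beside 57.4%). The gene was *Orc3*, a subunit of the origin recognition complex, with 9.10, 9.19, 9.15 and 9.28 in epithelium, against 9.44, 9.51, 9.51 and 9.61 in mesenchyme. The tissues did not overlap (log2 difference -0.34, SE 0.062, adjusted p = 0.002), and all 3 features of *Orc3* alone passed, between -0.51 and -0.34, while features that named *Akirin2* with it were left out. *Orc2* had the difference closest to 0 of all 59 genes, with 10.23, 10.12, 10.18 and 10.20 in epithelium, against 10.23, 10.15, 10.17 and 10.17 in mesenchyme (95% interval -0.12 to 0.12, adjusted p = 0.996). *Orc1*, the ATPase of the complex, had a log2 difference of -0.04 (95% interval -0.23 to 0.15, adjusted p = 0.721), and *Orc6* had a log2 difference of -0.10 (adjusted p = 0.289).

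Of the other loading genes, some passed within arrays only. *Orc4* had a log2 difference of -0.13, the same sign on all 4 arrays (adjusted p = 0.264, and 0.00891 with the block), but 2 of its 4 features were positive and their mean was 0.05 (adjusted p = 0.501). *Orc5* had a log2 difference of 0.20 (adjusted p = 0.112, and 0.0174 with the block), and it passed without mesenchyme replicate 1 (0.27, adjusted p = 0.0367) and in the mean of its 2 features (0.20, adjusted p = 0.0369). *Cdc6*, which loads the helicase with *Cdt1*, had a log2 difference of 0.17 (adjusted p = 0.149, and 0.0234 with the block), whereas its second feature gave -0.13. *Cdt1* itself had a log2 difference of -0.11 (adjusted p = 0.273). *Gmnn*, which encodes the *Cdt1* inhibitor geminin, had 13.96, 13.88, 13.89 and 13.82 in epithelium, against 13.88, 13.77, 13.85 and 13.72 in mesenchyme, values that overlapped (log2 difference 0.08, 95% interval -0.05 to 0.22, adjusted p = 0.296).

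All 6 genes of helicase activation and the fork had negative differences, with a median of -0.17, though *Gins1* and *Gins2* lay near 0. Of the 6 genes, 2 passed (33.3%, beside 45.9% of all genes), and 4 with the block (66.7%, beside 57.4%). Among all genes without the dimmest 30%, 58.0% passed, and 73.1% with the block. *Pcna*, the sliding clamp and a common marker of dividing cells, had 13.62, 13.60, 13.52 and 13.62 in epithelium, against 14.02, 14.00, 13.89 and 13.96 in mesenchyme. Every mesenchyme sample was higher, at 1.3-fold (log2 difference -0.37, SE 0.054, adjusted p = 0.000478), and its 10 features agreed closely, between -0.40 and -0.34. *Gins4*, a subunit of the GINS complex, had 11.35, 11.16, 11.09 and 11.13 in epithelium, against 11.51, 11.40, 11.37 and 11.47 in mesenchyme. These did not overlap (log2 difference -0.26, SE 0.07, adjusted p = 0.0159), and the call was lost when array 2 (-0.26, adjusted p = 0.0678) or array 4 (-0.23, adjusted p = 0.0892) was left out.

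The other GINS subunits and *Cdc45* did not pass without the block. *Gins3* had a log2 difference of -0.18 (adjusted p = 0.172, and 0.00379 with the block) and *Cdc45* had a log2 difference of -0.15 (adjusted p = 0.132, and 0.0212 with the block), both negative on all 4 arrays. *Gins1* had 10.93, 10.97, 11.05 and 11.14 in epithelium, against 10.98, 11.02, 11.08 and 11.11 in mesenchyme (log2 difference -0.02, 95% interval -0.17 to 0.12, adjusted p = 0.803). A second, dimmer *Gins1* feature passed at -0.31, and the mean of both was -0.17 (adjusted p = 0.0149). *Gins2* had a log2 difference of -0.02 (95% interval -0.15 to 0.10, adjusted p = 0.781), so the 4 subunits of this complex ran from near 0 to -0.26.

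*Rrm1* and *Rrm2* encode the subunits of ribonucleotide reductase, which supplies deoxynucleotides. *Rrm1* had 13.04, 13.19, 13.10 and 13.05 in epithelium, against 13.09, 13.21, 13.12 and 13.18 in mesenchyme, and it did not pass (log2 difference -0.06, 95% interval -0.19 to 0.07, adjusted p = 0.463). *Rrm2*, the subunit limited to S phase, had 10.98, 11.09, 11.07 and 10.92 in epithelium, against 11.14, 11.17, 11.12 and 11.01 in mesenchyme. It was lower in epithelium on all 4 arrays by a small amount (log2 difference -0.10, adjusted p = 0.258, and 0.0463 with the block).

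Of the 59 genes, 31 were measured by more than 1 feature, and these gave a second view of the same samples. For *Ccnd1* all 10 features passed with differences of 1.08 to 1.19, and for *Pcna* and *Cdkn1a* all 10 passed in 1 direction as well. Among the genes with 3 or more features, those of *Cdkn2a*, *Cdkn1b*, *Cdk12*, *Cdk14*, *Cdk17*, *Cdk7* and *Orc4* lay on both sides of 0. No gene had features that passed in opposite directions.

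**Figure D5:**
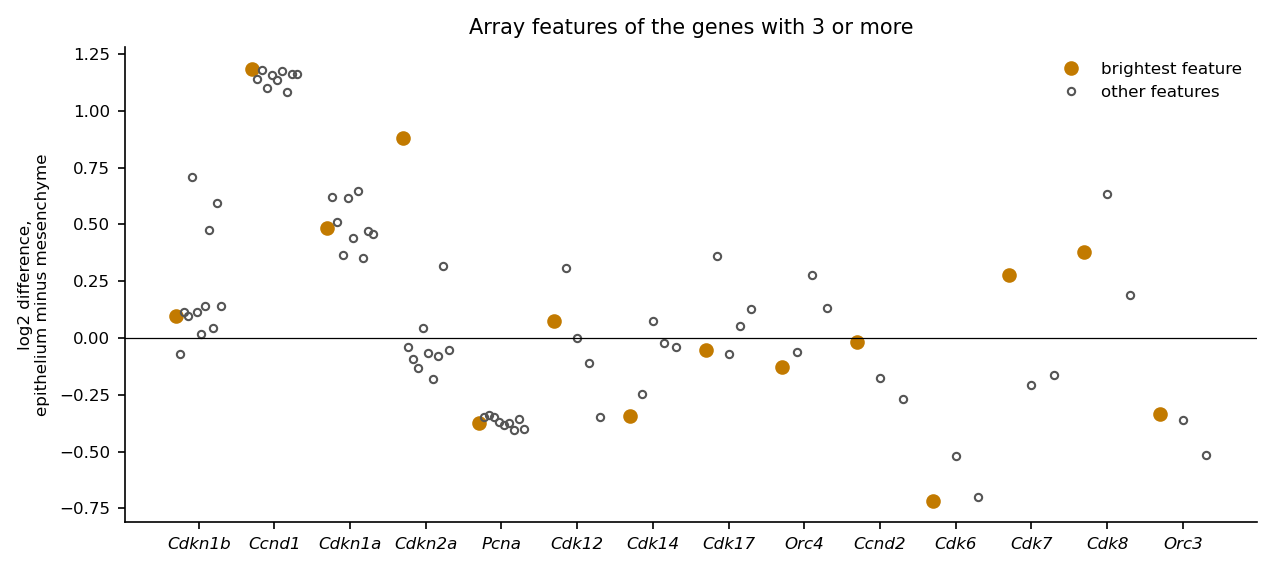
Log2 difference, epithelium minus mesenchyme, of each array feature for the genes with 3 or more features. The filled orange point is the feature with the highest mean signal, which stands for the gene in the text, and open points are the others. The 10 points of Ccnd1 and of Pcna lie close together, whereas the filled point of Cdkn2a at 0.88 lies apart from its other 9 features.

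Genes that work beside these were read from 5 further lists, each of which held genes called in both directions. The called share was 37.1% of the fork list, 62.5% of the nucleotide supply list, 46.2% of the RB and E2F list, 53.8% of the other CDK regulators and 14.3% of the partners of the other CDKs, beside 45.9% of all genes, and nothing particular to a list is read from these counts. Of 35 other replication fork genes, 7 were higher in epithelium, 6 in mesenchyme and 22 did not pass, with a median of -0.02. *Rfc1*, the large subunit of the clamp loader, averaged 12.37 in epithelium and 11.73 in mesenchyme (log2 difference 0.65, adjusted p = 1.26e-05), and *Dna2*, a flap nuclease, had a log2 difference of 0.60. *Pold4* and *Pold2*, small subunits of polymerase delta, were lower in epithelium, at log2 differences of -0.91 and -0.48. Of 8 nucleotide supply genes, 3 were higher in epithelium and 2 in mesenchyme. *Dck*, a deoxynucleoside kinase, and *Shmt1* were higher in epithelium, at log2 differences of 0.34 and 0.27, whereas *Tk1*, the thymidine kinase of S phase, and *Dctd* were lower, at -0.49 and -0.47.

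In the RB and E2F list, which sets S phase genes under CDK control, 3 of 13 genes were higher in epithelium and 3 in mesenchyme. *Rb1*, the retinoblastoma gene, averaged 8.75 in epithelium and 8.0 in mesenchyme (log2 difference 0.75, adjusted p = 1.73e-05), and *E2f2* was higher in epithelium by 0.90 on the log2 scale. *Rbl2*, which encodes p130, had a log2 difference of -0.54 but lost its call in the mean of its features (-0.14, adjusted p = 0.35). *E2f1* had a log2 difference of -0.38 (adjusted p = 0.00133) on its brightest feature and 0.13 (adjusted p = 0.0355) in the mean of its features, so its direction rests on the choice of feature.

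Of 13 other regulators of CDKs, 4 were higher in epithelium and 3 in mesenchyme. *Btg2*, an antiproliferative gene, was 2.82-fold higher in epithelium (log2 difference 1.5, SE 0.062, adjusted p = 1.17e-07), and its relative *Btg1* was higher in epithelium by 0.71 on the log2 scale. *Cdkn3*, a phosphatase of CDKs, and *Skp2*, which targets p27 for destruction, were lower in epithelium, at log2 differences of -0.55 and -0.32. Of 14 partners of the other CDKs, 1 passed in each direction: *Ccnl1* had a log2 difference of 0.30, and *Ccnh*, the cyclin of *Cdk7*, had one of -0.60, opposite to the brightest feature of *Cdk7* itself.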

How the data were processed

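Epithelium and mesenchyme of distal lung tips were compared on 4 oligonucleotide arrays of 2 colours. The authors deposited a table of log2 signals with a row for every array feature and a column for every sample. Per the methods, the authors corrected mean spot signals for background with normexp on negative controls at an offset of 1, took logarithms, quantile-normalized them and averaged replicate spots, although replicate features still have rows of their own. The logarithm's base, which no source gives, was taken as 2 because of the range of the deposited values. Cy3 alone is described in the methods, whereas the labels give both dyes. Arrays have no read depth, and the precision is limited by there being 4 of them.

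Of 45220 features, 33653 named 1 gene, 56 several and 11511 none here, and those with a missing value (523) were left out. The feature with the highest mean signal over the 8 samples stood for its gene. An unpaired linear model was fitted for each gene with limma 3.58.1 (lmFit, then eBayes) under R 4.3.3, with Benjamini-Hochberg adjustment over 18996 genes, a threshold of 0.05 and two-sided p-values. The steps were tested on simulated data with independent noise in each sample and no effect of the array, so that test does not cover samples that share an array. The genes and lists were chosen with earlier results of these data known. Genes named in the text were every cyclin, every inhibitor, *Cdk1*, *Cdk2*, *Cdk4* and *Cdk6*, and in each other role the 2 called genes that differed most each way and up to 3 uncalled genes nearest 0, which gave 44 members. The 2 called genes that differed most each way in the other lists gave 18 more.

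By the labels, an epithelium sample and the mesenchyme sample of its number were on 1 array. Their deviations from the tissue means correlated at 0.35, 0.62, 0.53 and 0.47, so the numbers were taken to pair the samples. Whether the samples came from separate embryos is given only in the design text of the series, so the spread that the p-values rest on may be technical. The alternatives were the array as a block, each sample or array left out, the mean over all features of a gene, a filter on the dimmest 30% of genes, a second quantile normalization, median centring, trended and robust eBayes, and, chosen after seeing the data, averaging the features of 1 accession first. Motifs were searched with pandas 2.3.3 in Python 3.11.15, and plots were drawn with matplotlib 3.10.9.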

Additional observations from a re-analysis of the deposited data

Results flagged for a closer look

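In 118 groups of 4 samples (59 genes in each tissue), 7 had a lowest or highest sample far from the other 3 by Dixon's criterion on the gap over the range, which chance gives in about 1 in 20 groups. In epithelium, *Ccnd2* was low in replicate 4 at 12.42, *Cdk6* was low in replicate 2 at 11.07, *Cdk16* was low in replicate 1 at 11.55 and *Cdk12* was high in replicate 3 at 8.58. In mesenchyme, *Ccnd3* was high in replicate 1 at 11.80, *Cdkn2b* was low in replicate 3 at 2.27 and *Mcm10* was low in replicate 3 at 9.82, beside 11.69 to 11.89 in the other 3 samples. The gap of *Mcm10* was the widest of the 7, and the call of no gene among them rested on the sample that lay apart.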

How the results depend on the processing

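Of the 27 called genes, 23 kept the call with each single sample left out, and *Ccna2*, *Cdk1*, *Cdk10* and *Cdkn2a* lost it without some sample. With samples or arrays left out, 13 to 15 members were higher in epithelium and 8 to 13 in mesenchyme, the 8 without array 2. The block gave 20 and 19, and the other alternatives gave 13 or 14 higher in epithelium and 12 or 13 in mesenchyme. With the mean over all features, the sign turned for *Cdk12* (-0.014), *Cdk13* (-0.083), *Cdk17* (0.083), *Cdk19* (0.061), *Cdk2* (-0.16), *Cdk7* (-0.031), *Orc4* (0.055) and *E2f1* (0.13). With features of 1 accession averaged first, it turned for *E2f1* (0.13) and *Orc4* (0.029). Leaving out samples or arrays turned the sign of 9 genes near 0, which ranged over -0.039 to 0.023 for *Ccnd2*, -0.012 to 0.18 for *Cdk12*, -0.079 to 0.11 for *Cdk13*, -0.0027 to 0.076 for *Cdk16*, -0.14 to 0.035 for *Cdk17*, -0.063 to 0.0079 for *Gins1*, -0.016 to 0.042 for *Mcm3*, -0.093 to 0.018 for *Orc1* and -0.017 to 0.023 for *Orc2*. The cause was not tested. *Cdkn2a* and *Ccnb3* were among the dimmest 30% of genes, where a difference is hardest to measure.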
